A study of Mus musculus with 2 samples.

Results

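The cells described here are 312 fibroblasts that carried transcripts of C7, a late complement component, in colonies grown, per the labels, from mouse aorta. They were chosen by measured transcript levels, in 2 steps, among 34813 barcodes of 1 single-cell RNA library, of which 33964 passed the filters on genes, UMIs and mitochondrial share. A unique molecular identifier (UMI) marks 1 captured RNA molecule. A barcode counted as a fibroblast when Col1a1, Col1a2, Col3a1 and Dcn together made up at least 0.3% of its gene UMIs, the mast cell proteases Cpa3 and Cma1 under 1%, and the macrophage C1q genes under 0.1%. Of the 3575 fibroblasts, a C7 fibroblast held at least 2 C7 UMIs and under 200 CPM, UMIs of a gene for every 1000000 gene UMIs, of Crabp1 plus Dlk1 and under 200 CPM of Adipoq. The 312 C7 fibroblasts were 8.73% of the fibroblasts (exact Clopper-Pearson 95% interval 7.82–9.70). The other 3263 fibroblasts were the cells they were compared with.

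The library came from the dorsal aorta of 2 male C57BL/6J mice aged 12 weeks, per the labels. The vessels were flushed, freed of surrounding fat and digested, and the cells were cultured in methylcellulose, which keeps the offspring of each founding cell together as a colony, and harvested after 14 days. Macrophage colonies (CFU-M) were broken up, sorted as viable by DAPI and tagged by MULTI-seq, in which lipid-anchored DNA oligonucleotides mark the cells of a suspension before pooling. The series set out to describe endothelial and macrophage progenitors, so fibroblasts were not the cells the labels name. The 2 mice were pooled and no label ties a cell to a mouse.

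Before any result, 3 facts about this library bear on all of them. It is 1 library without a replicate, so no difference has a replicate check, no test was run, and intervals cover counting error only. The labels name male mice, yet 2248 fibroblasts held at least 4 Xist UMIs with at most 1 UMI of Y-linked genes, and 561 showed the opposite, at least 4 UMIs of Y-linked genes with at most 1 of Xist. These sets are called Xist cells and Y cells here. The matrix counted 3 tags, named Cafum, Matrigel and Macrophages, and the labels do not say what each tag marked.

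Fibroblasts build and remodel the connective tissue of a vessel wall, mainly in its adventitia, where they lay down collagen, secrete proteases that cut it, and release chemokines and growth factors to neighbouring cells. Complement is a cascade of plasma proteins that marks and lyses targets. Its early part centres on C3, and its terminal part assembles C5b, C6, C7, C8 and C9 into the membrane attack complex. C7 lets the forming complex insert into a membrane. Most complement proteins come from the liver, and fibroblasts are among the cells outside it that transcribe some of these genes.

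C7 lies at chr15:4988762-5063740 on the minus strand (GRCm38, GENCODE M21). C6, its partner in the attack complex, lies at chr15:4727175-4814967 and Plcxd3, a phospholipase-like gene, at chr15:4375491-4575553, both on the plus strand. These 3 neighbours on chromosome 15 were each higher in C7 fibroblasts, C7 by the choice of cells and the others as described further on, so their promoter windows are shown. Each holds 250 bases before to 50 bases after the RefSeq start (GRCm38.p6), with matches to 4 motifs in capitals, searched on both strands: TATAA, the core of the TATA box, the CCAAT box, the AP-1 site spelled TGANTCA, and the STAT site spelled TTCNNNGAA.
C7, chr15:5063724-5064023, minus strand: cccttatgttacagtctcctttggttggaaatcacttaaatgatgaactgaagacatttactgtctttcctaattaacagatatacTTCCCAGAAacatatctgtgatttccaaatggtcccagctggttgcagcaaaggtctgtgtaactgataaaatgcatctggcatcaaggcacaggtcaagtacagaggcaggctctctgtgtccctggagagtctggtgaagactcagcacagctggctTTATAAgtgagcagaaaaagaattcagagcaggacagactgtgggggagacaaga
C6, chr15:4726960-4727259, plus strand: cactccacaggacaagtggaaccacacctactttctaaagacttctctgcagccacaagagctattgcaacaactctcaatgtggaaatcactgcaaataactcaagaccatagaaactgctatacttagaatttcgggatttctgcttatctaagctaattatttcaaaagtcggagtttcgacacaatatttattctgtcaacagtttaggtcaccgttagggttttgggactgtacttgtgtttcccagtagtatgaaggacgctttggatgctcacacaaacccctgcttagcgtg
Plcxd3, chr15:4375241-4375540, plus strand: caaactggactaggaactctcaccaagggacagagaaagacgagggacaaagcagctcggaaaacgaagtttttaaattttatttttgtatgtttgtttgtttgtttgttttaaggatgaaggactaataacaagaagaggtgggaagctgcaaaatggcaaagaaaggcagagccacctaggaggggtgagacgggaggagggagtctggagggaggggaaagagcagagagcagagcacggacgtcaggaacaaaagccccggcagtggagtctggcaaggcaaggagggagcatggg
The C7 window held a TATAA and, overlapping it, its reverse complement, as well as 1 match to the STAT motif. The TATAA spans bases 247 to 251 of the window, so it ends on the first base of the RefSeq transcript. GENCODE starts C7 33 bases downstream of RefSeq, and relative to that start the motif lies 37 to 33 bases upstream. The windows of C6 and Plcxd3 held none of the 4 motifs. Of all 32851 promoter windows, 24.9% held TATAA, 37.4% CCAAT, 7.81% TGANTCA and 8.30% TTCNNNGAA, so such matches also occur in many other promoters.

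C7 was unevenly spread over the fibroblasts. No C7 UMI was found in 3023 fibroblasts and 1 UMI, just outside the limit, in 225. Just inside it, 99 C7 fibroblasts held 2 UMIs and 37 held 3, while 71 held 4 to 9 and 105 held at least 10. The highest cell held 182. The 105 cells of at least 10 UMIs carried 3834 of the 4541 C7 UMIs of the C7 fibroblasts (84.4%, 83.3–85.5). With UMIs summed over the cells of each group, C7 came to 454 CPM (exact Poisson 95% interval 441–468) in C7 fibroblasts and 3.87 (3.50–4.28) in the others. These values follow from the rule and are a description.

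**Figure D1:**
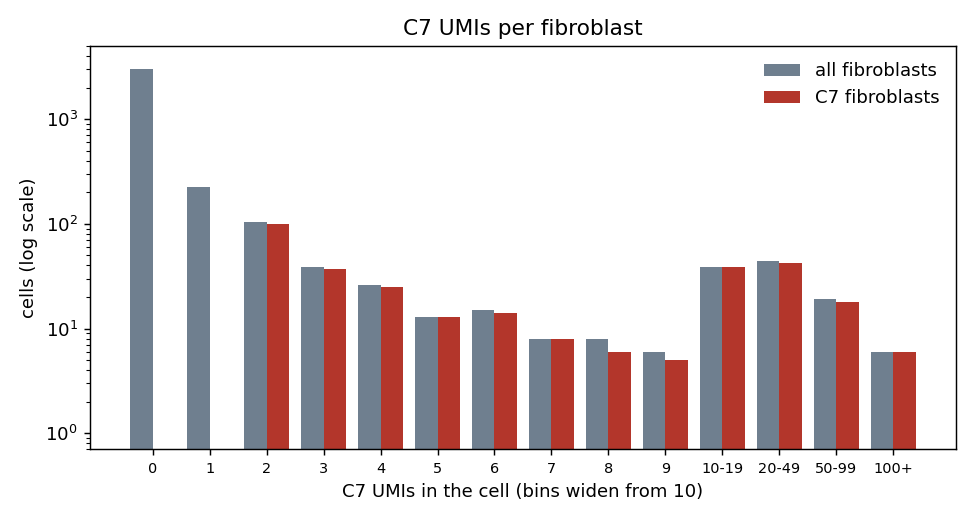
Number of cells (vertical axis, log scale) by C7 UMIs in the cell (horizontal axis, bins widening from 10 UMIs), for all 3575 fibroblasts and for the 312 C7 fibroblasts. The counts decline from 3023 cells at 0 UMIs to 5 C7 fibroblasts at 9 UMIs, and 105 C7 fibroblasts lie at 10 UMIs or more.

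Free RNA in the droplets gives single UMIs in cells that do not express a gene, so the C7 share was set against mast cells and macrophages of the same library. After every cell was thinned to 5500 UMIs, 64.6% of C7 fibroblasts (59.0–69.9, of 311) and 1.76% of the others (1.33–2.29, of 3123) kept a C7 UMI. The share was 0.434% of mast cells and 0.587% of macrophages, whose median depths before thinning were 12119 and 7781 UMIs. Without thinning, 7.36% of the other fibroblasts, 0.915% of mast cells and 1.23% of macrophages held a C7 UMI. Median depth was alike in the C7 fibroblasts (29592.5 UMIs and 5684.5 genes) and the others (30087 UMIs and 5604 genes). The limit of 2 UMIs was nevertheless seldom met in shallow cells. C7 fibroblasts were 2.05% of the 293 fibroblasts under 10000 UMIs and between 6.79% and 10.9% of those in 5 deeper ranges.

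Transcripts of other cell types were found in both groups. Scrublet called 7 C7 fibroblasts (2.24%) and 119 others (3.65%) as doublets, and the median share of the mast cell proteases was 0.101% and 0.0999% of UMIs. None of the 8 measured mast cell markers and none of the 4 measured macrophage markers differed by 1.5-fold, while the 10 mast cell genes together came to 4339 CPM in C7 fibroblasts and 3630 in the others. Tpsb2, a mast cell tryptase, stood at 436 CPM in C7 fibroblasts, 372 in the others and 5745 in mast cells. Lyz2, a macrophage lysozyme, stood at 35.3, 34.3 and, in macrophages, 3897 CPM. Cdh5, which defines endothelial cells, was at 0 in C7 fibroblasts, and no endothelial, lymphocyte or epithelial marker reached 10 CPM. A further 184 barcodes outside the fibroblasts held at least 2 C7 UMIs, and 63 of these at least 10. Of the 63, 50 met the fibroblast gene limit, 54 were at or above the mast protease limit, and 21 were called doublets.

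Of the 4 genes given as markers of these cells, the data bore out C7, by the rule, and Chl1. Chl1, a neural-type adhesion molecule of the immunoglobulin superfamily (chr6:103510586-103750211), reached 464 CPM (451–478) against 136 (133–138), 3.42-fold. Per cell it ranged from 0 to 3182 CPM with a median of 233 in C7 fibroblasts, and from 0 to 6369 with a median of 0 in the others. The ranges overlapped. More C7 fibroblasts held it, 65.0% after thinning (59.4–70.3) against 27.1% of the others (25.6–28.7). The level was also higher in the cells that had a Chl1 UMI, at a mean of 556 CPM over 261 C7 fibroblasts and 301 CPM over 1487 others.

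Cdh6, a cadherin of the developing kidney and other tissues, and Fmo2, a flavin monooxygenase, were not higher over all cells. Cdh6 (chr15:13028701-13173675) stood at 45.7 CPM (41.6–50.1) in C7 fibroblasts and 54.0 (52.6–55.5) in the others, 0.847-fold. This value depended on the cells taken: Cdh6 was at least 1.5-fold lower in 9 of 17 alternative settings, among them 0.444-fold at 5 or more C7 UMIs, 0.424-fold at 100 CPM of C7 and 0.619-fold by the mean of per-cell CPM. In the cells with more than 1 tag it was 1.93-fold (89.9 and 46.5 CPM, 47 C7 fibroblasts). Among C7 fibroblasts 1 cell held 89 of its 457 UMIs, and without the cell of most Cdh6 UMIs in each group it was 0.702-fold. Fmo2 (chr1:162874317-162898726) stood at 273 CPM (262–283) and 329 (326–333), 0.828-fold, with a median per cell of 101 and 68.7 CPM. Chl1, Cdh6 and Fmo2 were found together in 2.25% of thinned C7 fibroblasts (0.910–4.58) and 2.27% of the others (1.78–2.86). As a set, the 4 genes therefore did not mark the same cells. The general fibroblast genes were present: Pdgfra, a platelet-derived growth factor receptor, stood at 191 and 165 CPM and Fn1, fibronectin, at 1627 and 1594 CPM. Of 16 fibroblast markers 1 was higher (Fbln1), 1 lower (Thy1) and 14 neither.

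Among 8775 genes of at least 10 CPM in either group, 356 were at least 1.5-fold higher in C7 fibroblasts (4.06% of the genes tested) and 210 at least 1.5-fold lower (2.39%), together 566 (6.45%). The median log2 ratio over all 8775 was 0.02. These shares are the background for each group of genes described next, whose lists were chosen with earlier results of these data known.

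**Figure D2:**
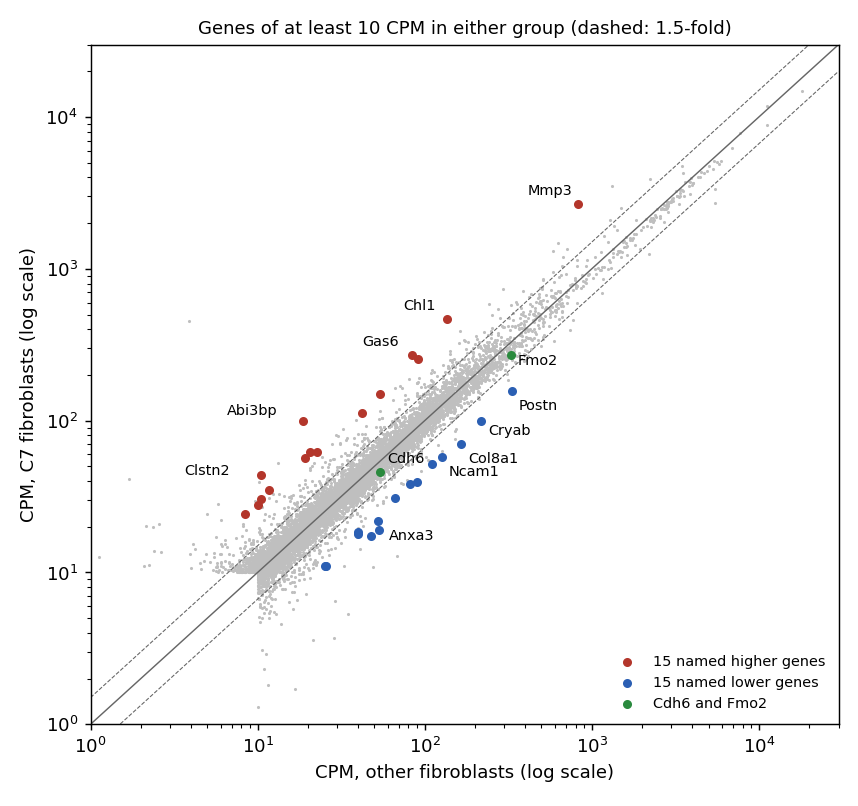
CPM of summed UMIs in C7 fibroblasts (vertical axis) against the other fibroblasts (horizontal axis), both log scales, for genes of at least 10 CPM in either group; dashed lines mark 1.5-fold. Mmp3, at 2677 against 825 CPM, is the most abundant of the 15 named higher genes, Fmo2 and Cdh6 lie between the dashed lines, and the isolated grey point at 3.87 on the horizontal axis is C7.

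The 15 genes named as furthest above the others ran from 2.69-fold to 5.30-fold. Abi3bp, which encodes a matrix protein that binds integrins, stood at 99.3 CPM (93.2–106) against 18.7 (17.9–19.6), 5.30-fold, and 27.7% of thinned C7 fibroblasts and 6.18% of the others held it. Per cell its median was 14.4 CPM in C7 fibroblasts and 0 in the others, and its highest values were 2770 and 1880. Clstn2, a calsyntenin of synaptic membranes, was 4.23-fold higher (44.1 and 10.4 CPM). Mmp3, the matrix protease stromelysin 1, was 3.24-fold higher at 2677 CPM (2645–2709) against 825 (820–831). Its median per cell was 1227 CPM in C7 fibroblasts and 91.9 in the others, and the highest cells held 27404 and 22413. Gas6, the secreted ligand of the Axl and Mertk receptors that clear dying cells, was 3.19-fold higher (270 and 84.4 CPM) and was also found in macrophages at 275 CPM. Fbln1, the matrix glycoprotein fibulin 1, was 2.77-fold higher (254 and 91.5 CPM), with a median per cell of 211 against 57.9 CPM.

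The rest of the 15 were of mixed function. Kctd16, an auxiliary subunit of GABA-B receptors, was 3.03-fold higher, the olfactomedin-like Olfml1 2.99-fold, the synaptic scaffold gene Dlgap1 2.97-fold, the transcription factor gene Tox 2.90-fold and neurofascin (Nfasc) 2.88-fold. Ccl19, which attracts lymphocytes and dendritic cells through Ccr7, was 2.77-fold higher (149 and 53.8 CPM), over 2 gene rows of that symbol summed. Ggt5, a gamma-glutamyl transferase, was 2.76-fold higher, isthmin 1 (Ism1) 2.75-fold and the syntrophin Sntg1 2.69-fold. Among these, 10 of 15 genes (Kctd16, Olfml1, Dlgap1, Tox, Nfasc, Clstn2, Abi3bp, Ggt5, Ism1 and Sntg1) were found in fewer than 30% of C7 fibroblasts thinned to 5500 UMIs. At full depth the 10 were found in 22.8% (Tox) to 53.8% (Ism1) of them, so the low shares come in part from the thinning.

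The 15 genes named as furthest below the others ran from 0.359-fold to 0.470-fold. Postn, the matrix protein periostin, stood at 156 CPM (149–164) against 334 (331–338), 0.467-fold, with a median per cell of 63.5 against 189. Col8a1, a short-chain collagen of vessel walls, was at 70.3 and 165 CPM (0.425-fold), Thbs1, the matricellular protein thrombospondin 1, at 51.7 and 110 (0.470-fold), and Thy1, a common fibroblast surface marker, at 18.6 and 39.8 (0.467-fold). Cspg4, the NG2 proteoglycan of mural cells, was 0.436-fold, Cav1, which forms caveolae, 0.470-fold, and the adhesion molecule Ncam1 0.454-fold. Anxa3, an annexin, was 0.413-fold, the adaptor Shc4 0.432-fold, the cGMP-dependent kinase gene Prkg2 0.438-fold, the kinesin Kif26b 0.450-fold and the small heat shock protein Cryab 0.460-fold. Pclaf, a replication factor, was 0.359-fold, Diaph3, a formin, 0.361-fold and the topoisomerase Top2a 0.462-fold. All 15 had UMIs in C7 fibroblasts, but free RNA can add such UMIs, and its part in these values was not tested.

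**Figure D3:**
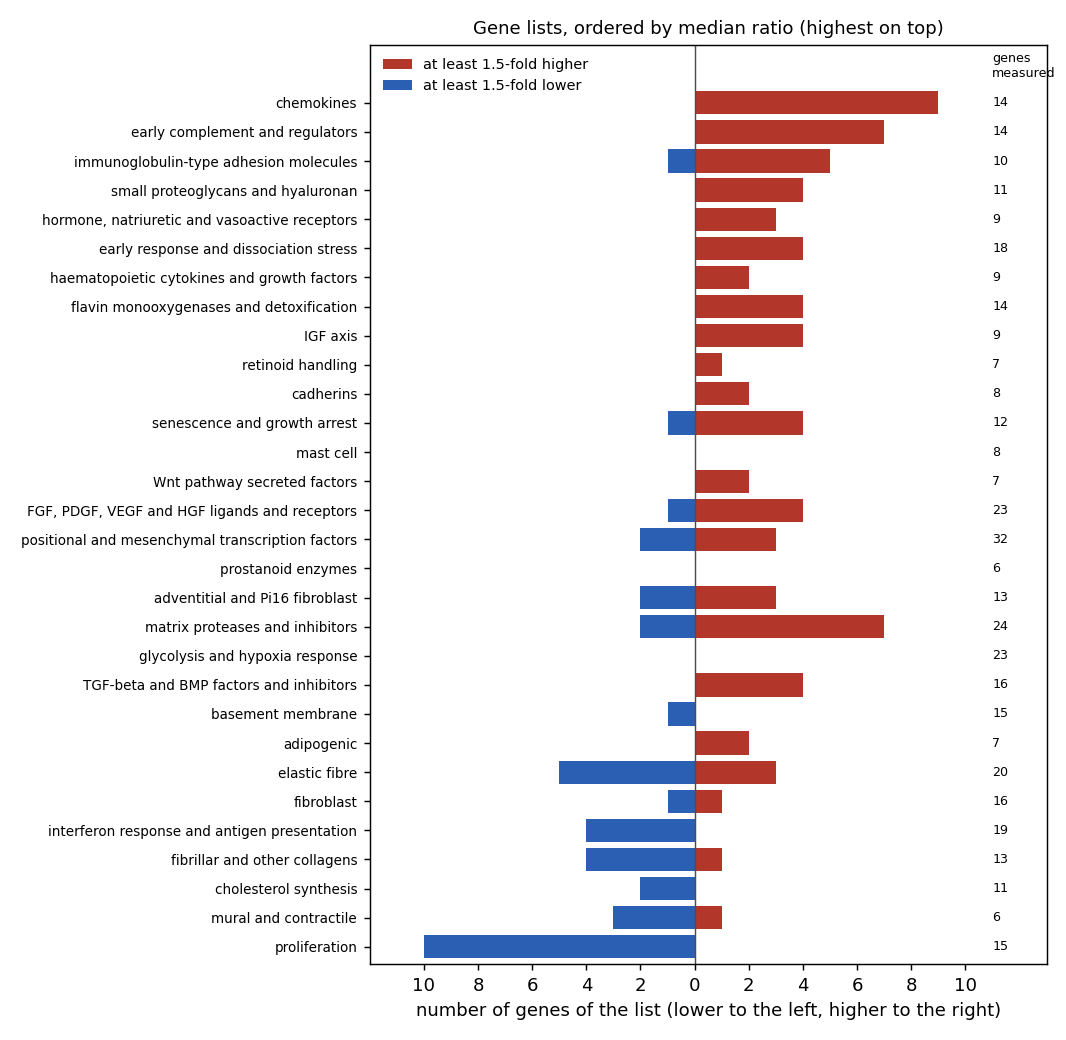
Number of genes at least 1.5-fold higher (bars to the right) and at least 1.5-fold lower (bars to the left) in C7 fibroblasts, for the gene lists with at least 6 measured genes, ordered by their median ratio with the highest on top; the number measured stands at the right. Chemokines (9 of 14 higher) head the order and proliferation genes (10 of 15 lower) close it.

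Chemokines, the secreted proteins that steer leukocytes, formed the list with the highest median among those of at least 6 genes: 9 of 14 measured were higher and none lower, with a median log2 ratio of 0.77. Cxcl12, the ligand of Cxcr4 that holds blood progenitors in their niche, was the most abundant at 1472 CPM (1448–1496) against 631 (627–636), 2.33-fold. It was found in 93.9% of thinned C7 fibroblasts and 71.1% of the others, and its median per cell was 1124 and 340 CPM. Ccl8, which draws monocytes, stood at 164 and 66.9 CPM (2.45-fold) and Ccl11, the eosinophil attractant eotaxin, at 55.1 and 27.2 (2.03-fold). Cxcl5 and Cxcl2, both neutrophil attractants, were 9.42-fold and 2.75-fold higher, but Cxcl5 was found in 4.18% of thinned C7 fibroblasts and Cxcl2 in 9.65% against 9.19%. Cxcl2 was mainly a transcript of macrophages in this library (3894 CPM), and Cxcl5 was 1.27-fold among Y cells. In C7 fibroblasts 1 cell held 335 of the 806 Cxcl2 UMIs, and without the highest cell of each group Cxcl2 was 1.69-fold. Ccl7, Cxcl1, Ccl19 and the decoy receptor Ackr3 made up the 9; without those cells Ccl7 was 1.49-fold and Cxcl1 1.47-fold, and Ackr3 turned to 0.761-fold when C7 cells were chosen after thinning.

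Of 14 measured genes of the early complement pathway and its regulators, upstream of C7, 7 were higher and none lower, with a median log2 ratio of 0.55. C3, the hub of the cascade, stood at 735 CPM (719–752) against 295 (292–299), 2.49-fold. Its median per cell was 647 CPM in C7 fibroblasts and 142 in the others, while the highest cells held 4644 and 6907. The C3 convertase genes Cfb (1.98-fold) and C4b (1.92-fold) were higher, as were the C1 proteases C1s1 (1.54-fold) and C1ra (1.53-fold), both under 1.5-fold by the mean of per-cell CPM. Cd93 was 1.59-fold higher, and it was 0.798-fold once clusters 2 and 6, led by mast cell and macrophage genes, were left out.

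Few genes of the terminal part of the cascade were measured. Of 10 genes of that list, C7 being used by the rule, 2 reached 10 CPM and both were higher. C6 reached 10 CPM in C7 fibroblasts only, so its direction followed from that limit. In macrophages C6 was at 14.1 CPM. It was at 12.7 CPM (10.6–15.1) in C7 fibroblasts against 1.13 (0.929–1.35) in the others, 11.3-fold. However, 1 cell held 33 of the 127 C6 UMIs, and without the highest cell of each group C6 was at 9.44 and 0.979 CPM, 9.65-fold, below the 10 CPM that a gene needed to count as measured. Clu, clusterin, which binds the forming attack complex in fluid, was at 46.6 and 26.5 CPM (1.76-fold). C8a and C8b had no UMI in C7 fibroblasts, and C9 (1 UMI) and C8g (13 UMIs) were at most 1.3 CPM.

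The genes around C7 were therefore examined one by one. Among genes that reach within 1000 kb of the C7 start, 6 besides C7 reached 10 CPM, and 2 of them, Plcxd3 and C6, were higher. Both reached 10 CPM in C7 fibroblasts only, so their direction followed from that limit. Plcxd3 stood at 41.1 CPM (37.2–45.3) against 1.71 (1.46–1.98), 24.1-fold, chosen after its values were seen. It was found in 56 of 312 C7 fibroblasts (17.9%, 13.9–22.7) and in 52 of 3263 others (1.59%, 1.19–2.08). Of the 65 fibroblasts with at least 2 Plcxd3 UMIs, 37 were C7 fibroblasts (56.9%, 44.0–69.2), and 28 of these held at least 10 C7 UMIs.

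C6 was found in 39 C7 fibroblasts (12.5%, 9.04–16.7) and 63 others (1.93%, 1.49–2.46). The level of Plcxd3 was 1.3 CPM at 0 C7 UMIs, 5.69 at 2 UMIs and 105.7 at 10 or more, whereas C6 was at 2.53 CPM at 2 UMIs, 10.3 at 4 to 9 and 18.0 at 10 or more. At 3 UMIs C6 came to 27.2 CPM over 37 cells, but the cell with 33 C6 UMIs lay there, and the level was 3.03 CPM without it. The other neighbours that reached 10 CPM were less than 1.5-fold apart: Oxct1 was 1.26-fold, Rpl37 0.936-fold, Prkaa1 1.03-fold and Ttc33 0.947-fold. Card6, whose start lies 44.8 kb from that of C7, was 1.59-fold higher, under the 10 CPM limit. It stood at 7.90 CPM (6.26–9.85) against 4.96 (4.54–5.41). Mroh2b, between C6 and C7, had too few UMIs for a value, and no other gene of the stretch from Plcxd3 to C7 was measured. Most C7 fibroblasts held no UMI of Plcxd3 or C6, and at these low levels a cell without a UMI may still transcribe the gene.

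**Figure D4:**
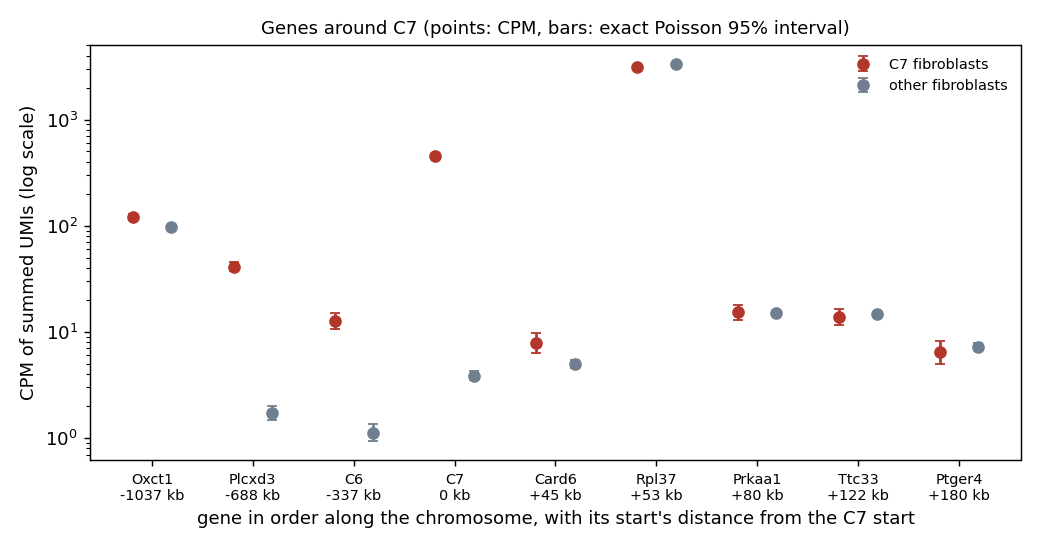
CPM of summed UMIs (vertical axis, log scale) of the genes around C7 with at least 5 CPM in either group, in order along the chromosome with the distance of each start from the C7 start in kb; bars are exact Poisson 95% intervals. Plcxd3 (41.1 against 1.71 CPM) and C6 (12.7 against 1.13) are higher in C7 fibroblasts by summed UMIs, while Rpl37 and Prkaa1 are alike. Most C7 fibroblasts held no UMI of Plcxd3 or C6. Card6 (7.90 against 4.96 CPM) is 1.59-fold higher.

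Secreted remodelling enzymes and matrix genes differed in both directions. Among matrix proteases and their inhibitors 7 of 24 were higher and 2 lower (median log2 ratio 0.14). Besides Mmp3, the aggrecanases Adamts15 (2.07-fold) and Adamts5 (1.75-fold, 250 and 143 CPM) were higher, while the sheddase Adam12 (0.495-fold) and the metalloprotease inhibitor Timp3 (0.624-fold, 250 and 400 CPM) were lower. Of small proteoglycan and hyaluronan genes 4 of 11 were higher and none lower (median 0.55), among them the glypican Gpc6 (716 and 389 CPM, 1.84-fold), podocan (Podn, 1.76-fold), lubricin (Prg4, 1.64-fold) and the hyaluronan synthase Has1 (1.89-fold).

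Of 13 collagen genes outside the rule, 4 were lower and 1 higher (median −0.20), with Col8a1, Col11a1 (0.533-fold), Col5a3 (0.571-fold) and Col24a1 (0.592-fold) on the low side. Basement membrane genes were nearly level, with 1 of 15 lower. Elastic fibre genes split, 3 of 20 higher and 5 lower: Fbln1 and Mfap4 (1.61-fold) were above, and the cross-linking enzyme gene Loxl3 (0.516-fold), Ltbp2 (0.578-fold) and Mfap5 (698 and 1159 CPM, 0.602-fold) below. Among the genes that chose the fibroblasts, given as a description only, Dcn stood at 2524 and 1498 CPM, Col3a1 at 4288 and 3537, and Col1a1 at 3029 and 3573.

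Adhesion molecules of the immunoglobulin type were 5 higher and 1 lower of 10 (median 0.55). Negr1 (57.5 and 24.3 CPM, 2.37-fold), Nfasc and Chl1, 3 neural members, were higher, and Cadm2 was 5.73-fold higher at 13.8 against 2.41 CPM, though 0.763-fold among Y cells. Ncam1 was the lower one. Of 8 cadherins, Pcdh9 (1359 and 709 CPM, 1.92-fold) and Pcdh17 (2.02-fold) were higher, and Cdh11, the usual cadherin of fibroblasts, was at 254 and 182 CPM (1.4-fold).

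Growth factor and hormone genes were higher in small numbers. In the insulin-like growth factor list 4 of 9 were higher and none lower (median 0.28): Igf1 stood at 136 and 64.6 CPM (2.10-fold), and its binding protein Igfbp4 at 389 and 164 (2.38-fold). Of 23 FGF, PDGF, VEGF and HGF genes, Hgf (1.95-fold), Fgf10 (1.58-fold), Angptl4 (1.57-fold) and the netrin gene Ntn1 (1.60-fold) were higher and Fgf1 (0.541-fold) lower. Tnfsf11, which encodes the osteoclast factor RANKL, was 2.60-fold higher (78.7 and 30.3 CPM). Csf1, the growth factor that macrophages need, was at 142 and 209 CPM (0.681-fold), short of the 1.5-fold limit. Of 9 hormone and vasoactive receptors 3 were higher and none lower (median 0.52). Among them, the growth hormone receptor Ghr (472 and 282 CPM, 1.67-fold) and the oestrogen receptor Esr1 (17.9 and 10.6 CPM, 1.68-fold) stood above the limit. Esr1 was 1.19-fold among Y cells, and with fibroblast genes at 1% or more of UMIs Hgf was 1.27-fold and Ghr 1.42-fold. Angptl4 was 1.44-fold without the highest cell of each group.

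Of 14 detoxification genes, 4 were higher and none lower (median 0.31). Cyp7b1, an oxysterol hydroxylase, was at 584 CPM (569–599) against 242 (239–245), 2.42-fold, with a median per cell of 323 and 128. The aldehyde oxidases Aox3 (3.86-fold) and Aox1 (1.53-fold, 1.49-fold without the highest cells) and the glutathione transferase Gstt1 (1.92-fold) were the others, while the marker Fmo2 of the same list was not. Transcription factors were mostly level: 3 of 32 were higher and 2 lower. Foxp2 (334 and 175 CPM, 1.91-fold) and Foxc1 (1.85-fold) were higher, and Foxs1 (3.10 and 10.6 CPM, 0.292-fold) lower.

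Of 18 early response genes, which tissue dissociation switches on, 4 were higher, none lower and 14 neither (median 0.46), with Fos at 1048 and 667 CPM (1.57-fold) and Zfp36, which destabilises inflammatory mRNAs, at 329 and 183 (1.80-fold). Fos was 1.44-fold with fibroblast genes at 1% or more of UMIs. Saa3, an acute phase serum amyloid, was at 3518 and 1320 CPM (2.67-fold, named for its abundance after its values were seen), with medians per cell of 751 and 89.9. Whether handling of the cells had a part in these values was not tested.

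Of 15 measured proliferation genes 10 were lower and none higher, with a median log2 ratio of −0.90, the lowest of any list of at least 6 genes. Mki67, the usual marker of cycling cells, was at 20.2 and 42.7 CPM (0.473-fold) and the cyclin gene Ccna2 at 5.30 and 12.9 (0.411-fold). After thinning, at least 3 of 18 proliferation genes were found in 11.3% of C7 fibroblasts (7.97–15.3) and 16.7% of the others (15.5–18.1); without thinning the shares were 72.1% and 72.7%. Mast cells also transcribe these genes, Mki67 at 98.2 CPM, and the part of free RNA in the values was not tested. Among the 95 fibroblasts of the Cafum tag the order turned, with Top2a 2.33-fold and Pclaf 1.97-fold in 16 C7 fibroblasts.

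The contractile genes Acta2 and Tagln were low in both groups and lower in C7 fibroblasts: Acta2, smooth muscle actin, was at 6.50 and 28.9 CPM (0.225-fold) and Tagln, transgelin, at 10.9 and 49.0 (0.223-fold). Myh11, the myosin of mature smooth muscle, was at 0.3 and 0.454 CPM. Of 6 measured mural genes 3 were lower and 1 higher, the pericyte channel gene Abcc9 at 87.6 and 32.6 CPM (2.68-fold). Of 19 interferon and antigen presentation genes 4 were lower and none higher (Isg15 0.524-fold, Irf7 0.538-fold, Ifit1 0.550-fold and Ifi27l2a 0.638-fold), and of 11 cholesterol synthesis genes 2 were lower. None of 23 glycolysis and hypoxia genes differed by 1.5-fold. S100a6, a calcium-binding protein abundant in fibroblasts, stood at 2709 CPM (2677–2741) against 5490 (5475–5504), with a median per cell of 2113 and 3981.

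The level of many of these genes followed the number of C7 UMIs in the cell. Chl1 was at 122 CPM in cells without a C7 UMI, 308 at 1 UMI, 359 at 2, 371 at 3, 434 at 4 to 9 and 622 at 10 or more. Mmp3 ran through 813, 1008, 2074, 2190, 2436 and 3603 CPM over the same bins. Cxcl12 ran from 606 to 1676, C3 from 275 to 821 and Fbln1 from 86.5 to 312 CPM between the end bins. For these genes, cells with 1 C7 UMI, which the rule leaves out, were thus between the groups, and the limit of 2 UMIs fell within a gradient. Other genes were less even. Abi3bp was at 46.5 CPM at 1 UMI, 87.8 at 2 and 36.0 at 3, and Gas6 at 280 at 3 and 195 at 4 to 9. Cryab was at 219 CPM at 0 UMIs, 200 at 1 and 97.6 at 2.

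On the low side, S100a6 was at 5634 CPM without C7 and 2567 at 10 or more UMIs, Postn at 340 and 99.7, Col8a1 at 170 and 39.6, and Tagln at 51.5 and 5.41. Saa3 was different, at 1210 CPM without C7, 4048 at 2 UMIs and 2757 at 10 or more. Cdh6 was at 55.3 CPM without C7, 69.2 at 2 UMIs and 21.9 at 10 or more, so the named marker was lowest where C7 was highest. In the bin of 2 UMIs, 1 cell held 89 of the 457 Cdh6 UMIs of C7 fibroblasts, which raises that bin. Fmo2 stayed between 230 and 332 CPM in all 6 bins. Ppargc1a, a regulator of mitochondrial genes, reached 52.0 CPM at 10 or more UMIs against 5.15 or less in the other bins, but 1 cell held 153 of the 200 Ppargc1a UMIs of C7 fibroblasts.

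**Figure D5:**
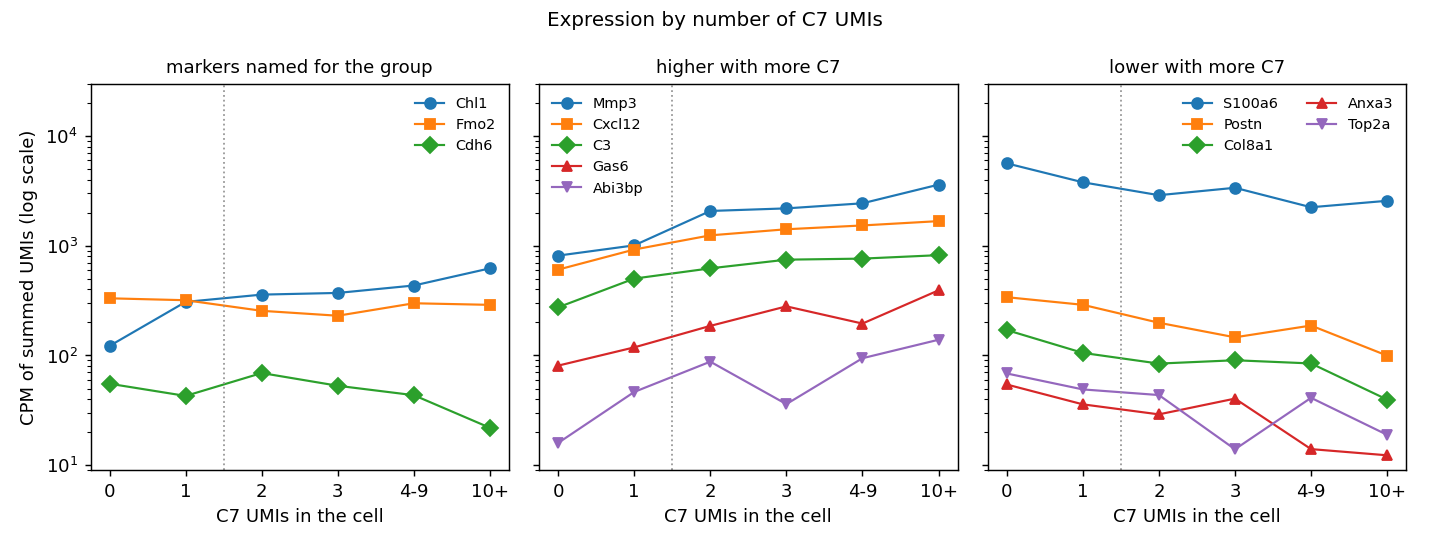
CPM of summed UMIs (vertical axis, log scale) by C7 UMIs in the cell (horizontal axis, 6 bins) for the named markers, for 5 higher and for 5 lower genes; the dotted line marks the limit of 2 C7 UMIs. Chl1 climbs from 122 to 622 CPM while Cdh6 ends at 21.9, and cells with 1 C7 UMI lie between those with 0 and 2 for Chl1, Mmp3, Cxcl12, C3, Gas6 and Abi3bp. Abi3bp dips at 3 UMIs and Gas6 at 4 to 9.

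Across 3434 fibroblasts thinned to 5500 UMIs, the genes most like C7 by Spearman correlation of per-cell CPM were Abi3bp (rho 0.225), Apoe (0.224), Chl1 (0.216), Cxcl12 (0.213), C3 (0.202), Fbln1 (0.198), Serpina3n (0.194), Cp (0.186), Zfp36l1 (0.182) and Dcn (0.177), out of 11064 genes. These values are low, the cells share 1 library, and most of them hold no C7 UMI. Fmo2 had a rho of 0.006 and Cdh6 of −0.048. The lowest was S100a6 at −0.200. Apoe, which carries lipid, stood at 1305 CPM in C7 fibroblasts and 583 in the others.

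Fibroblasts were also clustered without C7, the other rule genes, the named markers and the mast cell and macrophage lists, to see whether C7 fibroblasts lay together. They did so in part. Cluster 1, led by Cfd, Lrg1, Cxcl13 and Kctd16, held 149 of the 312 (47.8%, 42.1–53.5) and 60 of the 105 cells of at least 10 C7 UMIs (57.1%, 47.1–66.8), while 17.7–20.3% of all fibroblasts lay there (95% interval). C7 fibroblasts were 22.0% of its 678 cells (18.9–25.3), so most cells of that cluster were not C7 fibroblasts. Of the rest, 66 lay in cluster 0, 62 in cluster 2, 14 each in clusters 3 and 4, 4 in cluster 6, 3 in the cycling cluster 5 and none in cluster 7. Cluster 2 was led by mast cell genes and had a median mast protease share of 0.790%. It held 19.9% of C7 fibroblasts (15.6–24.7) and 14.2% of all fibroblasts (13.1–15.4).

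At a finer resolution, 398 of the 678 cells of cluster 1 fell into a cluster led by Cfd, Cxcl13 and Hp, and 220 into one led by Abi3bp, Opcml, Serpinb2 and Col14a1, which also took 111 cells of cluster 0. C7 fibroblasts were 79 of the 415 cells of the first and 84 of the 336 cells of the second. The 2 sets had the same C7 level, 692 and 716 CPM, but differed in what else they held. Cdh6 was at 54.4 CPM in the first and 4.25 in the second, and Chl1 at 435 and 775. In the other fibroblasts of these clusters Cdh6 was at 86.4 and 19.4 CPM and Chl1 at 167 and 426. High Chl1 was thus not confined to C7 fibroblasts. Among the C7 fibroblasts there were further differences. The first held more Saa3 (6887 against 2653 CPM) and Cxcl13 (192 against 1.70), and the second more Mmp3 (4713 against 2832), Cxcl12 (2523 against 1470) and Fbln1 (424 against 244). Genes that lead a cluster helped to form it, so these differences describe the clusters and are no test.

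C7 fibroblasts came from every large set of cells in the library. They were 162 of 2042 fibroblasts with the Matrigel tag alone (7.93%, 6.80–9.19), 16 of 95 with the Cafum tag alone (16.8%, 9.94–25.9), 1 of 30 with the Macrophages tag (3.33%, 0.0844–17.2), 47 of 445 with more than 1 tag (10.6%, 7.86–13.8) and 86 of 963 with none (8.93%, 7.21–10.9). The Cafum interval lay above that of the Matrigel cells, on 16 cells. C7 fibroblasts were 182 of 2248 Xist cells (8.10%, 7.0–9.30), 66 of 561 Y cells (11.8%, 9.22–14.7) and 64 of the 766 that were neither (8.36%, 6.49–10.5). Y-linked Ddx3y (1.53-fold) and Uty (1.54-fold) were higher in C7 fibroblasts as a whole. Within the Xist cells Ddx3y was 0.768-fold and Uty 2.60-fold. Those cells were chosen to hold at most 1 UMI of Y-linked genes, so these 2 ratios carry no information.

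The leading differences held on both sides of this split. Mmp3 was 3.11-fold higher among Xist cells and 4.13-fold among Y cells, Chl1 4.02-fold and 3.47-fold, Abi3bp 5.68-fold and 4.71-fold, C3 2.63-fold and 2.70-fold, and Cxcl12 2.32-fold and 2.58-fold. Plcxd3 was 37.1-fold and 12.8-fold higher. Cdh6 differed between them, at 0.845-fold among Xist cells (47.3 and 56.0 CPM) and 0.213-fold among Y cells (11.9 and 56.1 CPM). Il1rapl1, a synaptic receptor gene chosen after its values were seen, was 4.78-fold higher among Xist cells and 1.04-fold among Y cells. Saa3 was 3.11-fold higher with the Matrigel tag and 0.528-fold with the Cafum tag, where 16 C7 fibroblasts held 406 of its UMIs.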

How the data were processed

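Gene expression of 1 droplet library (10x 3′ v3.1) was analysed, and the tag library that belongs to it was not used. The values deposited by the authors are UMI counts of each gene in each barcode, not normalized; the file headers name Cell Ranger 7.0.0 as the counting software. The submitters' processing notes also name STAR, R 4.1.3, Seurat 4.1.1 and the build mm10. The annotation, the counting of intronic reads and of strand are not given in the sources used here, so reads of overlapping genes cannot be told apart. The 3 tag features (21.9% of all UMIs) were kept out of gene totals, and rows of one symbol were summed.

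Filters asked for 500 genes and 1000 UMIs per barcode and no more than 10% mitochondrial UMIs. Scrublet, run through scanpy 1.11.5, marked doublets, which were kept: 5006 of the barcodes that passed (14.7%); their removal is an alternative. C7 fibroblasts held from 2297 to 127950 UMIs. Mast cells were barcodes with at least 2% Cpa3 and Cma1, macrophages those with at least 0.2% C1q.

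CPM are of UMIs summed over cells, with exact Poisson intervals, and shares have exact Clopper-Pearson intervals (95%, scipy 1.17.1); both cover counting error only. With 1 library there is no test. Named genes needed at least 20 CPM in the higher group, detection in at least 10% of its cells thinned to 5500 UMIs and 1.5-fold also by the mean of per-cell CPM; 223 higher and 77 lower genes qualified, and the 15 furthest in each direction are named. Added to these were the markers and genes of 41 lists. A tag was called at 2 times its background, for Cafum at 1.4 times. The cells, the lists and the rules were chosen with earlier results of these data known. Clustering was by Leiden (leidenalg 0.10.2) on 2000 variable genes, 30 components and 15 neighbours at resolutions 0.5 and 1. Gene positions are from GENCODE M21, which held 32158 of the 32285 gene IDs, and promoter windows from RefSeq. The ratio of summed CPM was tried on simulated Poisson counts for each group, which hold no variation between cells. Some genes of the lists are not reported here.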

Additional observations from a re-analysis of the deposited data

How the results depend on the processing

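No paired analysis was possible because there is 1 library. The share of C7 fibroblasts (8.73% of fibroblasts) follows the limit on C7: it was 14.8% at 1 UMI, 4.22% at 5, 2.94% at 10, 5.79% at 100 CPM and 7.13% after thinning, and 11.8% among Y cells. The count of higher genes (356) was 221, 623, 702, 557, 694 and 698 under these 6 settings, 171 at 50 CPM and 104 at 2-fold. The count of lower genes (210) was 128, 330, 417, 353, 481 and 528, and 371 with the Matrigel tag alone, 344 at 5 CPM, 55 at 50 CPM and 60 at 2-fold; the cause was not tested. Fewer cells or UMIs in a group widen the counting error of each ratio. Removing doublets, stricter mitochondrial, mast protease and depth limits, and leaving out clusters 2 and 6 kept both gene counts within 1.5 times and the share within its interval. The settings of at least 10 UMIs, Xist cells, Y cells, without clusters 2 and 6 and without the highest cell of each group were chosen after seeing the data. Of 30 named genes all kept 1.5-fold in 15 of 17 settings. Cryab lost it among Y cells (0.825) and Thbs1 there and after thinning. The mean of per-cell CPM, among the 15, was part of the naming rule, so its outcome was fixed. Dividing ratios by their median, 1.02 over all genes, could hardly move genes so far apart. Of 140 gene ratios past 1.5-fold, 76 stayed past it in all 17 settings, 40 lost it at 1 C7 UMI and 31 with fibroblast genes at 1% of UMIs. Reversed were 7: Ackr3 (0.761) and Tbx3 (1.01) after thinning, Ddx3y (0.768) in Xist cells, Cadm2 (0.763), Col27a1 (0.830) and Smoc1 (0.914) in Y cells, and Cd93 (0.798) without clusters 2 and 6. The Ddx3y value comes from cells chosen to hold at most 1 UMI of Y-linked genes, so it is no check. In a further setting that left out, for each gene, the cell of most UMIs in each group, 129 of the 140 stayed past 1.5-fold, 11 fell short of it (1.29 for Bmp2 to 1.49) and 5 dropped under 10 CPM, C6 among them.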
